A study of Rattus norvegicus with 8 samples.

Results

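The amino acid transporter genes of the rat kidney were taken as all probe sets named with a single gene symbol of the families Slc1a, Slc3a, Slc6a, Slc7a, Slc36a, Slc38a or Slc43a. The osmolyte transporters Slc6a6, Slc6a12 and Slc38a2 were left out. The rule gave 59 genes of 18166 with a single symbol, and each had 1 probe set. The families held 7 genes of Slc1a, 2 of Slc3a, 16 of Slc6a, 17 of Slc7a, 4 of Slc36a, 10 of Slc38a and 3 of Slc43a. One of the 17, Slc7a6os, is named for the strand opposite Slc7a6 and is not a transporter gene, and Slc6a also holds the transporters of creatine, noradrenaline, dopamine and serotonin.

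Expression was measured on Affymetrix whole-transcript arrays in kidney of male Wistar rats aged 10 weeks, with 4 arrays labelled cortex and 4 labelled medulla. All 8 carry the same treatment, ethylene glycol each day and vitamin D on alternate days for 1 week. Ethylene glycol is turned into oxalate in the body, and the combination is used to form calcium oxalate crystals in rat kidney. No untreated group was compared, so the values describe treated kidneys and no effect of treatment can be read from them. The labels do not say whether arrays of the regions came from the same animals, so replicate numbers here only name arrays within a region. No label states how the replicates were obtained, and p-values therefore rest on the spread among arrays, part of which may be technical. The median intensity of an array was 34.1 to 34.7, and precision is limited by having 4 arrays for each region.

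The kidney filters free amino acids and takes nearly all of them back in the proximal tubule. Carriers of the brush border bring them into the cell, often with sodium, and exchangers and uniporters of the basolateral side pass them on to the blood. Most carriers of the Slc7 family known as light chains reach the membrane only when joined to a heavy chain, rBAT (Slc3a1) or 4F2hc (Slc3a2). Loss of Slc3a1 or Slc7a9 causes cystinuria, an inherited disease with cystine stones. Other members feed growth, glutathione synthesis and lysosomal sensing, and several are induced through the transcription factor ATF4 when amino acids run short.

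The region labels were set against marker genes first. The 5 markers of inner medulla and papilla were all higher on average in medulla, and the urea transporter gene Slc14a2 did not overlap between the regions. All 8 proximal tubule markers were lower on average in medulla, with a median difference of -0.36 log2, and so were all 5 markers of the proximal straight tubule, with a median of -0.27. None of these 13 was called by limma, and none lay in the lowest 30% of genes by mean signal. In cortex 6 of the 8 proximal tubule markers were lowest on replicate 1, against 27.2% of all genes. All 5 inner medulla markers were highest on that array, with a summed intensity of 937 against 501 to 587 on the other cortex arrays. The summed intensity of 2 podocyte markers was 467 on cortex replicate 1 and 541 to 723 on the other cortex arrays. In medulla it was 651 on replicate 2 and 360 to 421 on the others. Mixing of the regions on these arrays was not tested. The endocytic receptor gene Lrp2 measured 10.68 to 10.82 log2 intensity in cortex and 10.38 to 10.75 in medulla. The sodium-glucose transporter gene Slc5a2 measured 5.62 to 8.06 in cortex and 5.52 to 6.85 in medulla. Proximal tubule genes were thus measured on the medulla arrays too. In tissue RNA, fewer cells of a type and less RNA per cell cannot be told apart.

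The widest single ranges among the members were those of Slc7a12, Slc7a7 and Slc7a13 in cortex and of Slc7a7, Slc7a12 and Slc7a1 in medulla. The range of a gene is its highest minus its lowest log2 intensity over the 4 arrays of a region, and 1 log2 unit is a 2-fold range. It reached 2-fold in 9 of 59 members in cortex (15.3%) against 3.6% of all genes, and in 7 of 59 in medulla (11.9%) against 3.8%. By family these were 4 of 17 Slc7a, 3 of 10 Slc38a and 2 of 16 Slc6a members in cortex, and 4 of 17 Slc7a, 2 of 3 Slc43a and 1 of 10 Slc38a members in medulla. Slc7a7, Slc7a12, Slc7a13 and Slc38a3 reached it in both regions, 6.78% of the members against 2.21% of all genes. Among genes above the 30th percentile of mean signal these shares were 22.5% of 40 members against 5.14% in cortex, 17.5% against 5.42% in medulla, and 10% against 3.16% in both. Just inside the limit lay Slc38a7 in cortex at 1.05 and Slc43a2 in medulla at 1.05, and just outside it lay Slc7a1 in cortex at 0.91 and Slc7a5 in medulla at 0.96. Without cortex replicate 4 the cortex count was 1, Slc38a1, and the count in both regions 0. Without medulla replicate 4 the medulla count was 2, Slc38a3 and Slc43a3, and the count in both regions was 1, Slc38a3. Cortex replicate 4 was farthest from the median of the others for 7 of the 9 members with a 2-fold range in cortex, and for 75.8% of the 654 genes with such a range. Medulla replicate 4 was farthest for 5 of the 7 members, and for 74.5% of 691 genes. Injury markers moved with these arrays. Of 7, 6 were highest on replicate 4 in each region, against 32.1% of all genes in cortex and 27.1% in medulla. Their summed intensity reached 10305 on cortex replicate 4, while cortex replicates 1 to 3 ranged from 1371 to 1965. In medulla it reached 12168 on replicate 4, while replicates 1 to 3 ranged from 1489 to 6307. Their part in the members' values was not tested.

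**Figure D1:**
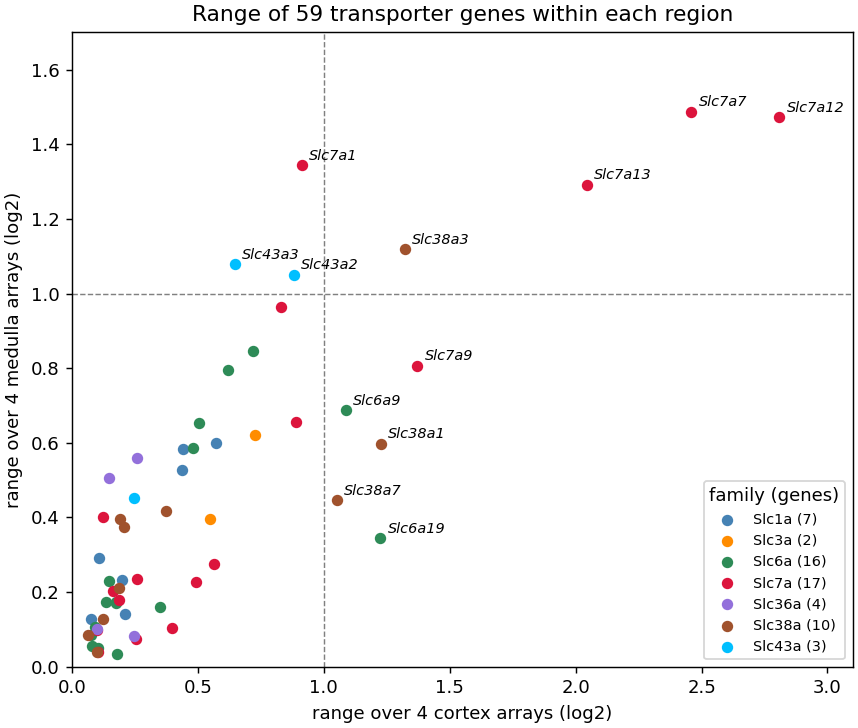
Range of log2 intensity over the 4 cortex arrays (x axis) and the 4 medulla arrays (y axis) for each of the 59 genes, coloured by family, with dashed lines at a 2-fold range. Slc7a7, Slc7a12, Slc7a13 and Slc38a3 lie beyond both lines.

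The start regions of the genes with a 2-fold range in both regions are shown where the RefSeq promoter table of build GRCr8 held them. The capitals in Slc7a7 mark a match to the antioxidant response element TGACNNNGC, bound by the oxidative stress factor NRF2, and Slc7a12 has no capitals because it had no match. Each run covers 250 bases before and 50 after the gene's start, at chr15:31835634-31835933 on the minus strand for Slc7a7 and chr2:88868054-88868353 on the minus strand for Slc7a12. Slc7a13 and Slc38a3 had no entry. On the replicate 4 arrays Slc7a7 lay above and Slc7a12 below the other arrays of the region, which played no part in the choice.
Slc7a7: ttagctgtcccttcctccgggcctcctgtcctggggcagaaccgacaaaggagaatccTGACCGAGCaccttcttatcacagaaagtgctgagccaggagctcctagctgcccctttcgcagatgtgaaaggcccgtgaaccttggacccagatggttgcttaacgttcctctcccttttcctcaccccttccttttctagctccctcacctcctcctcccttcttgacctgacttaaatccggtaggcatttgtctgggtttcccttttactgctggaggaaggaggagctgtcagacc
Slc7a12: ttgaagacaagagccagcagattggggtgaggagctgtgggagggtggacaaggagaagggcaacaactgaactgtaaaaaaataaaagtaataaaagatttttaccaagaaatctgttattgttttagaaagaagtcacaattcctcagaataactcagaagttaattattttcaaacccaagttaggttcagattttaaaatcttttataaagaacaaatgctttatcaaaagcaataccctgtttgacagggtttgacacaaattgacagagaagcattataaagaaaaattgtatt
The match in Slc7a7, TGACCGAGC, begins 192 bases before the start. GC content was 54.7% for Slc7a7 and 33% for Slc7a12. Promoters were found for 44 of the 59 members. On either strand, TGACNNNGC occurred in 6 of 44 (13.6%) against 12.1% of all 33469 promoters of 300 bases. The amino acid response core TGATGNAA, bound by ATF4, occurred in 3 of 44 (6.82%) against 3.98%, namely in Slc1a4, Slc7a1 and Slc38a1. The element of the kidney and liver factor HNF1, searched as GTTAAT and ATTAA with any single base between, occurred in 1 of 44 (2.27%), Slc7a15, against 0.0448% of all promoters. A match describes letters in this window and shows no binding.

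The heavy chains differed little between the regions. Slc3a1, the partner of the cystine exchanger, gave log2 intensities of 11.77, 11.76, 11.65 and 11.23 for the cortex replicates, listed here and throughout in the order 1 to 4, and of 11.74, 11.68, 11.64 and 11.34 for the medulla replicates. Its lowest value lay on replicate 4 in each region, and its cortex and medulla values overlapped. Slc3a2, the partner of most other light chains, gave 8.41, 8.62, 8.55 and 9.13 for the cortex replicates and 8.54, 8.61, 8.09 and 8.71 for the medulla replicates. Its highest values lay on the arrays where Slc3a1 was lowest.

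The light chains that pair with Slc3a1 stood on opposite sides. Slc7a9, the cystine and dibasic amino acid exchanger of the early proximal tubule, gave 7.03, 7.36, 7.71 and 8.40 for the cortex replicates and 6.81, 7.18, 7.17 and 7.62 for the medulla replicates. Its highest value lay on replicate 4 in each region. Slc7a13, which carries aspartate, glutamate and cystine in the proximal straight tubule, gave 11.69, 11.60, 11.37 and 9.65 for the cortex replicates and 11.46, 11.40, 11.52 and 10.23 for the medulla replicates. The replicate 4 arrays lay below all others of their region, and the cortex arrays spanned 4.12-fold and the medulla arrays 2.45-fold. Without cortex replicate 4 the cortex range of Slc7a13 was 0.33 log2, and without medulla replicate 4 its medulla range was 0.12. The cortex range of Slc7a9 was 0.68 without cortex replicate 4, against 1.37 with it.

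Slc7a12, a light chain of the Asc type for small neutral amino acids, had the widest cortex range of the members. It gave 10.23, 10.28, 9.32 and 7.47 for the cortex replicates and 10.05, 9.97, 9.72 and 8.57 for the medulla replicates. Replicate 4 was lowest in each region and cortex replicate 3 lay between. The cortex arrays spanned 7.01-fold and the medulla arrays 2.78-fold, or 0.96 and 0.33 log2 when the replicate 4 array of that region was left out. Across all genes, 149 of 18166 (0.82%) had a 2-fold range in both regions with the replicate 4 arrays farthest and below, and among the members these were Slc7a12 and Slc7a13. Markers of the proximal straight tubule, the segment of Slc7a13, were lowest on replicate 4 for 3 of 5 genes in cortex. In medulla they were lowest there for 4 of 5, and over all genes these shares were 31.6% and 28.1%. The summed intensity of these 5 genes was 1322, 1306, 1440 and 1044 for the cortex replicates and 1096, 1111, 1075 and 782 for the medulla replicates. Single markers differed. In cortex Slc22a13, an organic anion transporter gene, stood at 8.05, 7.52, 6.96 and 4.75, while Slc5a8, a monocarboxylate transporter gene, stood at 8.03, 8.11, 8.20 and 8.35, highest on replicate 4. The pattern was not particular to this segment. Replicate 4 was lowest for 5 of 5 thick ascending limb markers in cortex and 4 of 5 in medulla. For collecting duct principal cells it was lowest for 3 of 5 and 4 of 5, and for intercalated cells for 3 of 5 and 3 of 5. For the distal convoluted and connecting tubule it was lowest for 2 of 5 in each region. The part of these segments in the Slc7a12 and Slc7a13 values was not tested.

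**Figure D2:**
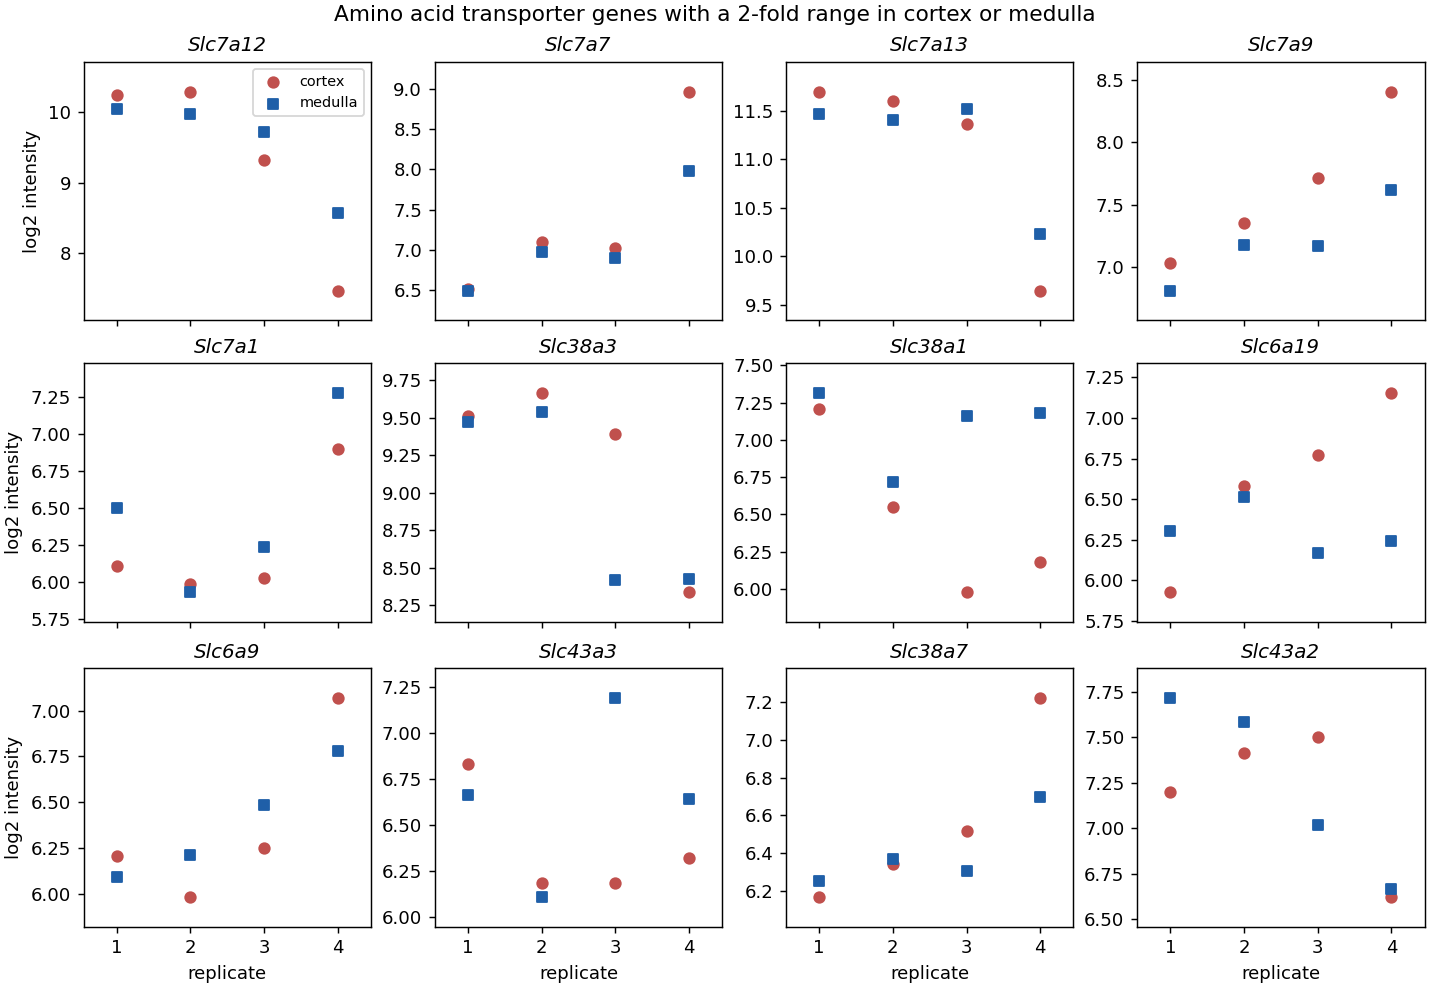
Log2 intensity (y axis, scaled per gene) on each array (x axis, replicate number within a region) for the 12 genes with a 2-fold range in cortex (circles) or medulla (squares). Slc7a12 and Slc7a13 are lowest and Slc7a7 and Slc7a9 highest on the replicate 4 arrays of both regions.

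The sodium-coupled carriers of the brush border spanned narrower ranges. Slc6a19, the main neutral amino acid carrier of the kidney, gave 5.93, 6.58, 6.77 and 7.15 for the cortex replicates and 6.30, 6.51, 6.17 and 6.24 for the medulla replicates. Cortex replicate 1 was its lowest array and cortex replicate 4 its highest, while the medulla values stayed within 0.34 log2. Its cortex range of 1.22 became 0.57 without cortex replicate 1 and 0.84 without cortex replicate 4. Slc6a18, a glycine and neutral amino acid carrier that lies next to Slc6a19 in the RefSeq table, gave 8.78, 9.00, 9.17 and 8.67 for the cortex replicates and 8.85, 8.93, 8.76 and 8.28 for the medulla replicates. Unlike Slc6a19, it was lowest on replicate 4 in both regions.

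Slc1a1 and the imino acid carriers stayed within a 2-fold range. Slc1a1, a glutamate and aspartate carrier of the brush border, gave 8.84, 9.00, 9.13 and 8.69 for the cortex replicates and 8.80, 9.00, 8.68 and 8.42 for the medulla replicates. The imino acid transporter genes Slc6a20a and Slc6a20b, which also lie side by side, had ranges of 0.62 and 0.48 log2 in cortex and 0.80 and 0.59 in medulla. Both were lowest on medulla replicate 4, but in cortex Slc6a20b was lowest on replicate 1. Replicate 4 was lowest for 5 of the 8 apical carriers in cortex and for 5 of 8 in medulla, against 31.6% and 28.1% of all genes. Slc36a2, the proton-coupled glycine and proline carrier, stayed between 4.65 and 4.89 on all arrays, within the lowest 30% of genes by mean signal, where changes cannot be resolved well. It is among the 5 counted in cortex.

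On the basolateral side Slc7a7 lay on the other side from most of its group. Slc7a7, the exchanger that releases lysine and arginine into the blood and is mutated in lysinuric protein intolerance, gave 6.51, 7.09, 7.02 and 8.96 for the cortex replicates and 6.49, 6.97, 6.89 and 7.98 for the medulla replicates. Replicate 4 lay above all other arrays of its region, replicate 1 was lowest, and the arrays spanned 5.50-fold in cortex against 2.80-fold in medulla. The range left without the replicate 4 array was 0.59 log2 for cortex and 0.48 for medulla. A 2-fold range in both regions with the replicate 4 arrays farthest and above was found in 157 of all genes (0.864%), and Slc7a7 was the 1 member among them. Slc7a7 is also known in macrophages. Of 6 leukocyte markers, 3 were highest on cortex replicate 4 and 5 on medulla replicate 4, against 32.1% and 27.1% of all genes. Their summed intensity was 919, 645, 474 and 714 for the cortex replicates and 792, 649, 1237 and 1391 for the medulla replicates, with Itgam near background at 4.50 to 4.63 in cortex and 4.56 to 5.05 in medulla. On cortex replicate 1, where the summed leukocyte level was highest in cortex, Slc7a7 was at its lowest. Of the 8 proximal tubule markers, 3 were highest and 2 lowest on cortex replicate 4, and 3 highest and 5 lowest on medulla replicate 4. Slc5a2, highest on both, gave 5.62, 6.38, 6.47 and 8.06 for the cortex replicates and 5.52, 6.16, 6.09 and 6.85 for the medulla replicates. The part of leukocytes or of the proximal tubule in the Slc7a7 values was not tested.

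The other basolateral carriers were lower or little different there. Slc38a3, which takes up glutamine for ammonia production, gave 9.51, 9.66, 9.39 and 8.34 for the cortex replicates and 9.47, 9.54, 8.42 and 8.43 for the medulla replicates. It was low on 1 cortex array and on 2 medulla arrays, so that its medulla range of 1.12 stayed at 1.12 without medulla replicate 4, while its cortex range was 0.27 without cortex replicate 4, against 1.32 with it. Slc43a2, a uniporter of branched-chain amino acids, gave 7.20, 7.41, 7.50 and 6.62 for the cortex replicates and 7.72, 7.59, 7.02 and 6.67 for the medulla replicates. It was lowest on replicate 4 in each region, and its medulla range was 0.70 without medulla replicate 4 and 0.92 without medulla replicate 1, against 1.05. Slc6a13, a carrier of GABA and betaine, gave 7.77, 7.91, 7.96 and 7.25 for the cortex replicates and 7.82, 7.79, 7.31 and 6.98 for the medulla replicates. Slc7a8, the exchanger of large and small neutral amino acids, gave 7.37, 8.11, 8.26 and 8.16 for the cortex replicates and 7.11, 7.76, 7.53 and 7.55 for the medulla replicates, and its lowest array was replicate 1 rather than replicate 4.

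Members known as amino acid response genes tended to be highest on the replicate 4 arrays. This held for 5 of the 6 in cortex and 5 of the 6 in medulla, against 32.1% and 27.1% of all genes. Slc7a1, the general carrier of arginine and lysine, gave 6.11, 5.99, 6.03 and 6.90 for the cortex replicates and 6.50, 5.93, 6.24 and 7.28 for the medulla replicates. Replicate 4 stood above the others in each region, and the medulla range of 1.34 became 0.57 without medulla replicate 4. Slc7a5, the exchanger of large neutral amino acids that pairs with Slc3a2, gave 6.11, 6.06, 5.92 and 6.75 for the cortex replicates and 6.17, 6.22, 5.71 and 6.67 for the medulla replicates. Slc6a9, a glycine transporter, gave 6.21, 5.98, 6.25 and 7.07 for the cortex replicates and 6.09, 6.21, 6.49 and 6.78 for the medulla replicates. Its cortex range of 1.09 became 0.27 without cortex replicate 4. Slc1a5, a glutamine and neutral amino acid exchanger, ranged over 0.44 log2 in cortex and 0.53 in medulla, with replicate 4 highest in each. Slc1a4, a serine and alanine carrier, was the exception, with 6.35, 6.80, 6.63 and 6.23 for the cortex replicates and 6.46, 6.58, 5.98 and 5.98 for the medulla replicates. Slc7a11, which imports cystine for glutathione, stayed between 4.26 and 4.45 on all arrays, among the lowest signals of the array. It is among the 5 counted in each region.

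**Figure D3:**
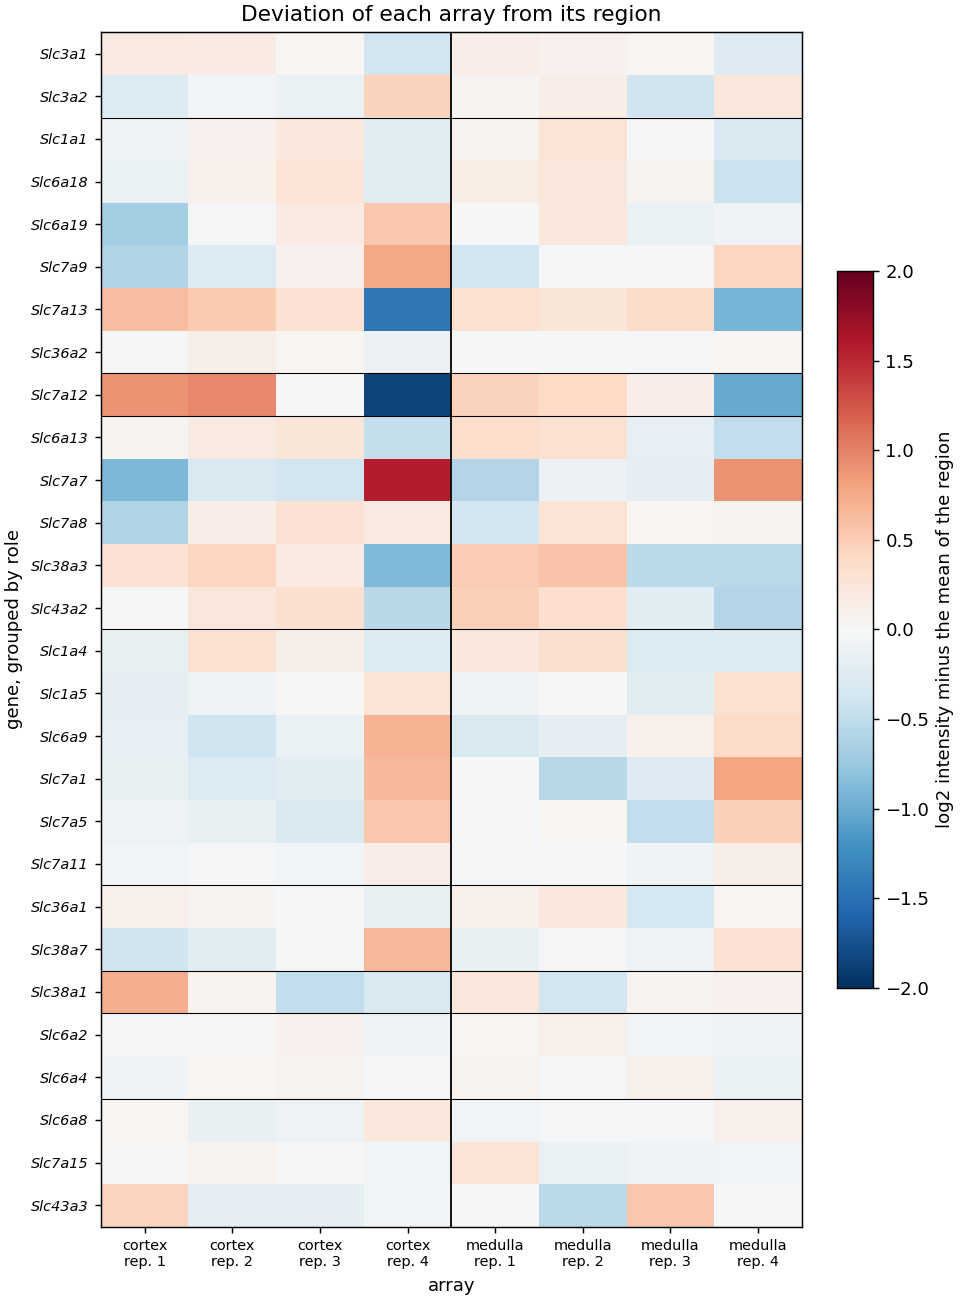
Log2 intensity minus the mean of the region (colour) for 28 named genes (rows, grouped by role) on each array (columns). Slc7a12 and Slc7a13 stand out low and Slc7a7 high on cortex replicate 4 and medulla replicate 4, and Slc7a1, Slc7a5 and Slc6a9 are above their region's mean there.

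Lysosomal and other glutamine carriers gave 2 further members with a 2-fold range, both in cortex alone. Slc38a7, which exports glutamine from lysosomes, gave 6.17, 6.34, 6.52 and 7.22 for the cortex replicates and 6.25, 6.37, 6.30 and 6.70 for the medulla replicates, and its cortex range was 0.35 without cortex replicate 4. The arginine sensor gene Slc38a9 had ranges of 0.21 and 0.37, and the lysosomal proton-coupled carrier gene Slc36a1 of 0.26 and 0.56. Slc38a1, a sodium-coupled glutamine carrier, gave 7.21, 6.55, 5.98 and 6.18 for the cortex replicates and 7.31, 6.72, 7.16 and 7.18 for the medulla replicates. Here cortex replicate 1 stood above the other cortex arrays, and its range was 0.57 without that array. Slc43a3, known as a purine base transporter, gave 6.83, 6.19, 6.18 and 6.32 for the cortex replicates and 6.66, 6.11, 7.19 and 6.64 for the medulla replicates. Its medulla range of 1.08 rested on a low replicate 2 and a high replicate 3, and was 0.55 when either was left out.

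The remaining members stayed within a 2-fold range in each region. Among those above the dim limit, Slc7a6, a light chain for dibasic and neutral amino acids, had a range of 0.56 in cortex, and Slc7a2, a carrier of arginine and lysine, of 0.49. In medulla Slc36a4 had a range of 0.50 and Slc43a1, a uniporter of branched-chain amino acids, of 0.45. The creatine transporter gene Slc6a8 gave 9.98, 9.81, 9.85 and 10.16 for the cortex replicates and 9.81, 9.84, 9.82 and 9.97 for the medulla replicates. Replicate 4 was highest in each region, within a range of 0.35 and 0.16 log2. Of the 59 members, 19 lay in the lowest 30% of genes by mean signal, and their widest range was 0.40 in cortex and 0.29 in medulla. They include 11 of the 13 members best known from the nervous system, such as the glutamate transporter gene Slc1a2, the dopamine transporter gene Slc6a3 and the glycine transporter gene Slc6a5. No 2-fold range was found among the Slc1a, Slc3a and Slc36a families, whose widest cortex ranges were 0.57, 0.73 and 0.26. Levels of different probe sets were not set against each other, because probe sets differ in response.

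The regions were compared next, which asks whether these carriers differ between cortex and medulla. None of the 59 members was called by limma at an adjusted p under 0.05 with a 2-fold difference, and 0 of 18166 genes were called (0%). The fit treated the arrays as independent. Slc14a2, at 1.53 log2 without overlap, was not called either, so the absence of calls does not show equal levels. The members' adjusted p lay between 0.875 and 1. An unadjusted p under 0.05 was reached by 3 members (5.08%) against 5.35% of all genes, which is near the background. The difference was negative in 40 members and positive in 19 (32.2%, against 45.8% of all genes), with a median of -0.04 log2 against -0.01 over all genes. In the Slc6a family 15 of 16 differences were negative, with a median of -0.08, though 8 of the 16 were dim, and in the Slc43a family 3 of 3 were positive. Of the 19 dim members 15 were negative, at signals where changes cannot be resolved well. Of the 40 members above the dim limit, 25 were negative and 15 positive (37.5%, against 50.4% of such genes). All 8 proximal tubule markers and all 5 of the straight tubule were negative too. Their part in the members' differences was not tested.

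No difference of a single member passed the adjusted test. Slc7a15, an aromatic amino acid light chain, gave 4.76, 4.83, 4.76 and 4.71 for the cortex replicates and 5.30, 4.90, 4.96 and 4.97 for the medulla replicates, which was the 1 member without overlap of the regions, against 2.83% of all genes in either direction and 1.1% with medulla higher. The count without overlap was 9 without cortex replicate 1, and 1 to 4 with any other single array left out. Its difference was 0.27 ± 0.09 (SE, 4 against 4 arrays), or 0.18 without medulla replicate 1, at a signal near the dim limit of 4.83. Slc38a1 differed by 0.61 ± 0.27 and Slc7a8 by -0.49 ± 0.22, the widest differences in each direction, and each overlapped between the regions. The noradrenaline and serotonin transporter genes Slc6a2 and Slc6a4 differed by -0.14 ± 0.05 and -0.16 ± 0.06. For all 5, limma's adjusted p was 0.875. The signs of Slc7a12, Slc7a13 and Slc7a7 turned without cortex replicate 4. Slc7a12 differed by 0.25 ± 0.66, or by -0.37 without that array, Slc7a13 by 0.08 ± 0.51, or by -0.40, and Slc7a7 by -0.31 ± 0.56, or by 0.21. The difference of Slc7a13 was also negative without medulla replicate 1, 2 or 3, at -0.0272, -0.0065 and -0.0454.

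**Figure D4:**
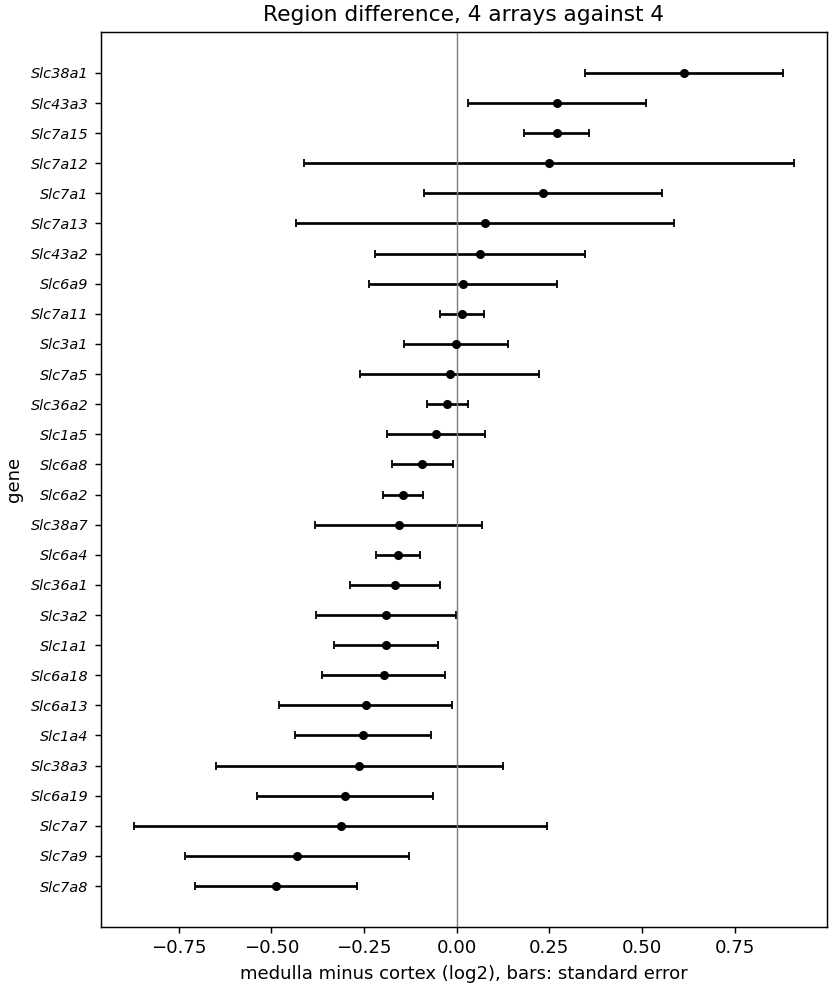
Medulla minus cortex difference in log2 intensity (x axis, points) with its standard error (bars) for 28 named genes (y axis), from 4 arrays against 4. Slc38a1 lies at 0.61 and Slc7a8 at -0.49, and no gene passed the adjusted test.

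Other genes of amino acid handling were read from the same arrays. Of the partners and related transporters 8 of 9 were measured, and 1 had a 2-fold range in both regions. This was Slc15a2, the peptide transporter of the proximal straight tubule, which gave 9.27, 9.20, 9.24 and 7.22 for the cortex replicates and 8.97, 8.94, 8.84 and 7.53 for the medulla replicates, low on the same arrays as Slc7a13. Cltrn, which encodes collectrin, the partner that brings Slc6a19 to the membrane, ranged over 0.48 and 0.68, and Slc16a10, an aromatic amino acid uniporter gene, over 0.54 and 0.11. Of the brush border peptidases, which free amino acids from peptides, 6 of 9 were measured. All 6 were lowest on replicate 4 in each region, against 31.6% of all genes in cortex and 28.1% in medulla. Mep1a, a meprin subunit gene, gave 9.51, 9.45, 9.46 and 8.30 for the cortex replicates and 9.35, 9.35, 8.91 and 8.11 for the medulla replicates. Xpnpep2, an aminopeptidase gene, also had a 2-fold range in both regions, 1.09 and 1.16.

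Most genes of the wider amino acid response list were also highest on the replicate 4 arrays. Of 20 genes 19 were measured, and 13 were highest on cortex replicate 4 and 15 on medulla replicate 4. Over all genes these shares were 32.1% and 27.1%. Atf4 gave 8.54, 8.49, 8.39 and 9.35 for the cortex replicates and 8.50, 8.63, 8.50 and 9.05 for the medulla replicates. Asns, the asparagine synthetase gene, gave 6.06, 6.03, 6.32 and 6.84 for the cortex replicates and 5.98, 5.94, 6.09 and 6.77 for the medulla replicates. Both were highest on replicate 4, without reaching a 2-fold range. Atf3, a stress response factor gene, had the list's widest range, 2.50 in cortex and 2.19 in medulla, and was the 1 gene with a 2-fold range in both. Trib3 and Ddit3, which are also ATF4 targets, ranged over 0.17 and 0.47 in cortex and 0.29 and 0.41 in medulla. Ddit3 was lowest on medulla replicate 4, at 5.62 against 5.79 to 6.03 on the other medulla arrays. Psat1, another gene of the list, was also lowest there, at 8.81.

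Of the glutathione synthesis genes, 4 of 5 were measured, and replicate 4 was lowest for 3 in cortex and 4 in medulla. Over all genes it was lowest for 31.6% in cortex and 28.1% in medulla. Gclc, the catalytic subunit of the rate-limiting enzyme, gave 11.73, 11.66, 11.58 and 10.79 for the cortex replicates and 11.64, 11.60, 11.56 and 11.16 for the medulla replicates. Gss, the glutathione synthetase gene, reached a 2-fold range in both regions, 1.04 and 1.01. Of the osmolyte transporters left out of the family, Slc6a6 ranged over 0.18 and 0.68 and Slc38a2 over 0.63 and 0.59. No gene of these lists was called between the regions, where limma's adjusted p was 0.875 or more. The widest difference was that of Nupr1, a stress response gene, at 1.05 ± 0.37 with an adjusted p of 0.875 in limma.

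**Figure D5:**
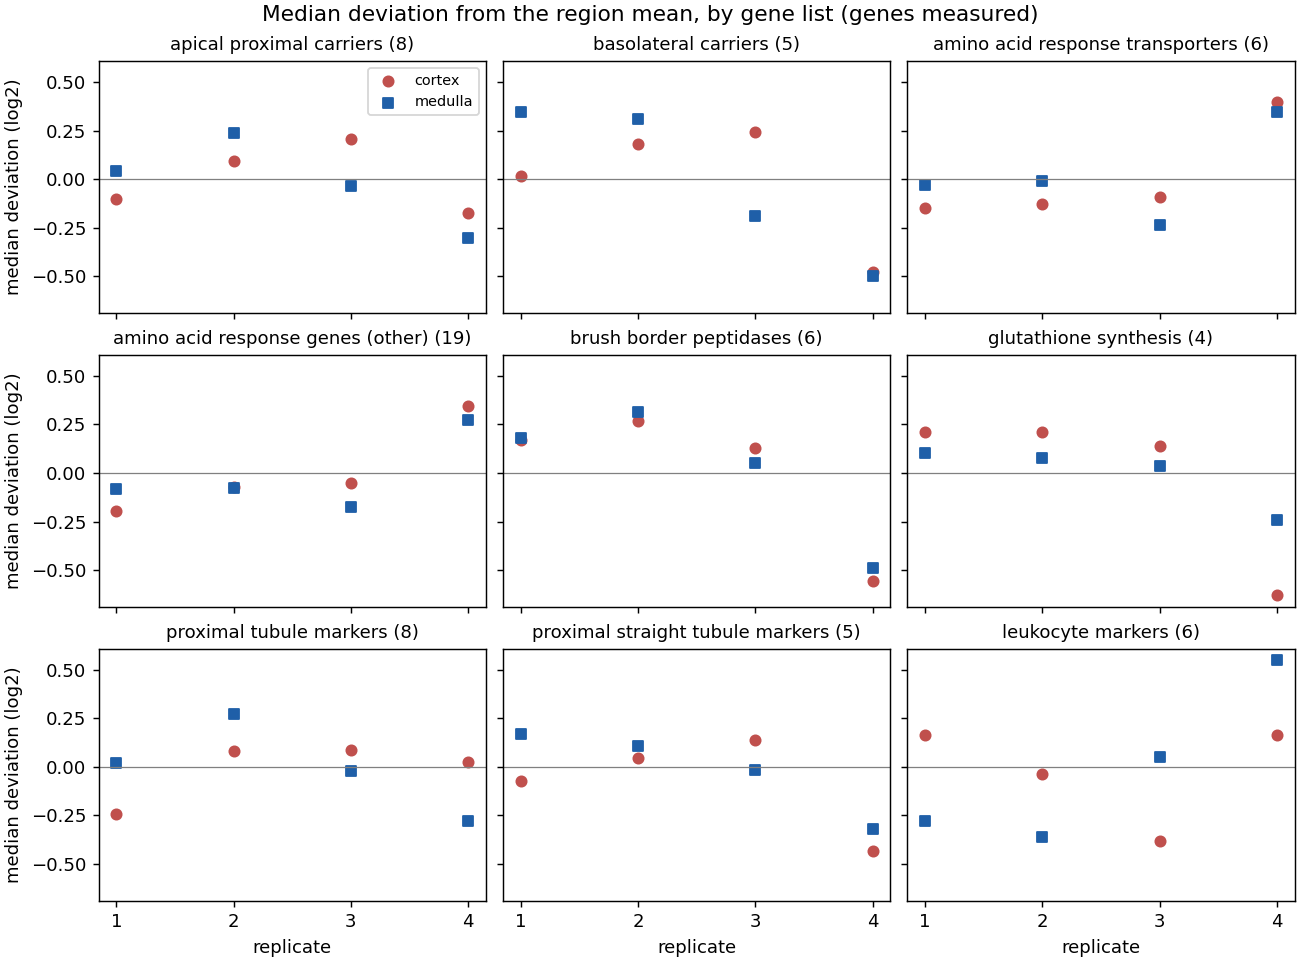
Median deviation from the region mean in log2 intensity (y axis) on each array (x axis, replicate number within a region) for gene lists, with the number of genes measured, in cortex (circles) and medulla (squares). The amino acid response lists are highest and the peptidase and glutathione lists lowest on the replicate 4 arrays of both regions.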

How the data were processed

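Total RNA was extracted from homogenised kidney, per the labels' protocols. The authors deposited probe set intensities for every array. Per the submitters' processing notes they used Expression Console and RMA, of unstated version. Because the values ran from 17.3 to 6229 with near-equal quartiles, the intensity was taken to be linear and normalized. The log2 was taken with no pseudocount. Of 29870 probe sets, 18511 had 1 gene symbol in the platform annotation, and the probe set with the highest mean was kept for each of 18166 genes. All 59 members matched the RefSeq gene table of GRCr8 by Entrez identifier and 0 symbols changed. Sequences are RefSeq's.

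Arrays were grouped by the labelled region and numbered in accession order, so a shared number was not used to pair arrays, and whether arrays share an animal is not stated. Medulla was set against cortex in limma 3.58.1 (R 4.3.3, lmFit, eBayes, Benjamini-Hochberg over all genes). Calls needed an adjusted p under 0.05 and a 2-fold difference. Deviations are log2 values minus the mean of the region. The fit was tested on simulated data. Named were members with a 2-fold range in a region, with an unadjusted p under 0.05 or without overlap of the regions, a fixed set of apical, basolateral and amino acid response carriers, and the highest mean of each family. Other genes named from the lists were chosen partly after their values were seen. The members and lists were chosen with earlier results of these data known. The alternatives are given in the closing section. Figures were drawn with matplotlib 3.10.9.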

Additional observations from a re-analysis of the deposited data

Results flagged for a closer look

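In 4 of 56 groups of 4 arrays, taken over 28 named genes and 2 regions, an array stood apart from the rest by a gap beyond Dixon's limit for 4 values. Chance passes it in about 1 of 20 groups, but that rate does not hold here, since 12 of the 28 genes were named for a 2-fold range in a region. The other cortex arrays had Slc7a13 at 11.37 to 11.69 and cortex replicate 4 at 9.65. The other medulla arrays had it at 11.40 to 11.52 and medulla replicate 4 at 10.23. For Slc7a1 cortex replicate 4 stood at 6.90, above 5.99 to 6.11 elsewhere in cortex. For Slc7a11 it stood at 4.45, above 4.26 to 4.28, a gap within the lowest signals of the array.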

How the results depend on the processing

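Under every alternative run, 0 of the members were called between the regions, and the lowest adjusted p of a member lay between 0.488 and 1. The alternatives were quantile normalization, median centring, the mean of probe sets, leaving out dim genes, each array left out, a trended robust prior, array weights and the adjusted p alone. With single arrays left out, the count of members with a 2-fold range lay between 1 and 9 in cortex, 2 and 7 in medulla and 0 and 4 in both regions, and the count without overlap between 1 and 9, the 9 without cortex replicate 1. With both replicate 4 arrays left out, a setting chosen after seeing the data, these counts were 1, 2, 0 and 5. At a 1.5-fold range they were 17 in cortex, 18 in medulla and 15 in both. Of 417 recomputed differences of named genes, 382 kept their sign and 35, in 12 genes, did not. The 382 include the mean of probe sets, the omission of dim genes and the trended robust prior, which could not change a difference. Each member had 1 probe set, and the other settings named alter only the set of genes or the variance. Quantile normalization turned Slc3a1 to 0.0554 and Slc6a9 to -0.0013, array weights turned Slc7a5 to 0.0879 and Slc7a13 to -0.0676, and leaving out both replicate 4 arrays turned Slc7a5 to 0.00317, Slc7a12 to -0.0343 and Slc7a13 to -0.0908. With single arrays left out, the difference ranged from -0.16 to 0.0298 for Slc1a5, -0.13 to 0.0846 for Slc3a1, -0.12 to 0.25 for Slc6a9, -0.0305 to 0.45 for Slc7a1, -0.18 to 0.16 for Slc7a5, -0.61 to 0.21 for Slc7a7, -0.0219 to 0.0606 for Slc7a11, -0.37 to 0.58 for Slc7a12, -0.40 to 0.38 for Slc7a13, -0.0662 to 0.0158 for Slc36a2 (-0.0786 without both replicate 4 arrays), -0.29 to 0.0631 for Slc38a7 and -0.12 to 0.26 for Slc43a2. The cause of these turns was not tested. No paired analysis was possible because the labels give the regions no shared replicate numbers. Signal over background limits the 19 dim members.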
